A study of Mus musculus and Rattus norvegicus with 30 samples.

Results

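Long noncoding RNAs (LncRNAs) of the mouse dorsal root ganglion (DRG), 9 in number, were followed across strain and nerve injury: Malat1, Neat1, Meg3, Rian, Mirg, Miat, Snhg11, H19 and Peg13. They were chosen by name, as abundant nuclear LncRNAs or LncRNAs of imprinted domains. Of the 54315 features in the mouse count table, 8 of these genes were found by the deposited symbol. Rian, whose symbol is missing there, was found by its Ensembl identifier, which gives 9. All 9 passed the filter on low counts and were among the 24685 features tested. Of the 39281 features in the rat table, only Snhg11 carried a symbol from the list.

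The mouse libraries were made from ribosomal RNA-depleted RNA of L3 and L4 DRG, the ganglia that hold the cell bodies of sensory neurons, with 1 animal per library, collected 28 days after surgery on adult males and females. Spared nerve injury (SNI) cuts branches of the sciatic nerve and leaves a branch intact, so the ganglia hold both cut and uncut neurons. There were 6 BALB/c sham (3 female, 3 male), 4 BALB/c SNI (2 female, 2 male), 5 B10.D2 sham (2 female, 3 male) and 5 B10.D2 SNI libraries (3 female, 2 male), and 2 further mouse samples were not analysed here. The rat libraries were made from polyadenylated RNA of L5 DRG of male Wistar rats, 3 pooled animals per library, 21 days after spinal nerve transection (SNT, n = 4) or sham surgery (n = 4). Mouse libraries are named by the number in their label, and rat libraries by a number within each group.

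Malat1 and Neat1 are neighbouring genes whose RNAs stay in the nucleus. Malat1 RNA gathers in nuclear speckles, bodies rich in splicing factors, and the long form of Neat1 builds the paraspeckles, bodies that hold RNA-binding proteins such as Nono and Sfpq. Miat (also Gomafu) is a nuclear RNA of neurons known to bind splicing factors, and Snhg11 is a small nucleolar RNA host gene, one of a family whose introns carry such RNAs. The remaining 5 belong to imprinted domains, where the copy inherited from each parent is expressed unequally: Meg3, Rian and Mirg are maternally expressed from the Dlk1-Dio3 domain and host miRNAs and small nucleolar RNAs (snoRNAs), H19 is maternally expressed beside the paternally expressed growth factor gene Igf2, and Peg13 is paternally expressed from within Trappc9, near the potassium channel gene Kcnk9. The count tables hold no allele information, so imprinting itself was not measured.

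Positions are from GENCODE M21 on mm10. Malat1 (ENSMUSG00000092341) lies at chr19:5795690-5802672 and Neat1 (ENSMUSG00000092274) at chr19:5824708-5845478, both on the minus strand. The plus strand of chromosome 12 holds Meg3 (ENSMUSG00000021268) at chr12:109541001-109571726, Rian (ENSMUSG00000097451) at chr12:109603940-109661716 and Mirg (ENSMUSG00000097391) at chr12:109729764-109749460. Miat (ENSMUSG00000097767) lies at chr5:112213228-112229395 on the minus strand and Snhg11 (ENSMUSG00000044349) at chr2:158375638-158386145 on the plus strand. H19 (ENSMUSG00000000031) lies at chr7:142575529-142578143 and Peg13 (ENSMUSG00000106847) at chr15:72805600-72810324, both on the minus strand. The annotation classes Snhg11 as protein coding, Rian as a processed transcript, Peg13 as a sense intronic RNA and the other 6 as lincRNAs. Exon bases shared with another gene of the same strand made up 0% (Peg13) to 7.74% (Miat) of the exonic length, and the overlapping genes were classed as misc_RNA, miRNA or snoRNA. Reads there could have been withheld from the host gene. Miat shared 24.3% of its exonic bases with an exon of Gm26953 on the opposite strand.

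Stretches of 30 bases were read from the reference (GRCm38) to show what is particular to these RNAs. Malat1 and the long Neat1 transcript are not ended by a poly(A) signal but by cleavage next to an A-rich tract, which is shown for both, with the final 11 bases in capitals. These 11 bases were identical. The Malat1 stretch lies at chr19:5795982-5796011 (minus strand), just before the annotated mascRNA, the small RNA cut from its end, and the Neat1 stretch at chr19:5824708-5824737 (minus strand), the end of its longest transcript.
Malat1, end before mascRNA: ttccctagctttaaaaaaaAAAAAGCAAAA
Neat1, end of the long transcript: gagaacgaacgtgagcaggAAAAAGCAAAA

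A U-rich tract upstream of the Malat1 end (chr19:5796048-5796077, minus strand) is known to pair with that A-rich tract, and its T run is in capitals. A short Neat1 transcript ends at an ordinary poly(A) signal instead (chr19:5842307-5842336, minus strand), shown with AATAAA in capitals. The counts are per gene and do not separate the short from the long form of Neat1.
Malat1, U-rich tract: gttgtaaaggTTTTTCTTTTcctgagaaaa
Neat1, end of a short transcript: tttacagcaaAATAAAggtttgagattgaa

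Miat is known for repeats of ACTAAC, the motif through which it binds splicing factors. Its longest transcript (9163 bases) held 11 copies on the transcribed strand, or 1.20 per kb, the second highest density (rank 2) among 4190 longest transcripts of at least 5000 bases, of which 54.1% held at least 1 copy. The other 8 LncRNAs held 0 to 4 copies. The stretch at chr5:112217344-112217373 (minus strand) is shown with each copy in capitals.
Miat, repeat: ACTAACctggcccgagcatgtcctACTAAC

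Meg3, Rian, Mirg and H19 together hosted 20 miRNA hairpins with 37 annotated mature miRNAs (RefSeq, GRCm38.p6), and the other 5 hosted none. Mirg held 26 of the 37, Rian 6, Meg3 3 and H19 2. The 37 had 36 distinct seeds, bases 2 to 8 of the mature miRNA. The only seed present in more than 1 of them was that of miR-453 and miR-496a-5p, both in Mirg. These 2 are shown with the H19 and the Mir770 miRNAs, seeds in capitals. Their coordinates are chr7:142577112-142577133 and chr7:142577078-142577099 (minus strand) for miR-675-5p and miR-675-3p, chr12:109563710-109563731 and chr12:109563744-109563765 for miR-770-5p and miR-770-3p, and chr12:109735669-109735692 and chr12:109739132-109739152 for miR-453 and miR-496a-5p (plus strand). Mature miRNAs were not assayed as such, and what follows concerns the host transcripts.
H19, miR-675-5p: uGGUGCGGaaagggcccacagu
H19, miR-675-3p: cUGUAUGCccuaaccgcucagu
Meg3, miR-770-5p: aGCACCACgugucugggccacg
Meg3, miR-770-3p: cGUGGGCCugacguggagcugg
Mirg, miR-453: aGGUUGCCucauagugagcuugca
Mirg, miR-496a-5p: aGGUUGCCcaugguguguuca

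Library totals were 29989963 to 41881331 counts in mouse and 11954612 to 17887909 in rat, and the 9 LncRNAs took 2.20% to 2.69% of the counts of a mouse library. Levels are given as CPM, the count divided by the library total times its TMM normalization factor and multiplied by 1000000. The 9 listed markers of sensory neurons were all present, with a summed level of 7711 to 10289 CPM. The 8 axon injury markers rose in 8 of 8 cases in BALB/c and in 7 of 8 in B10.D2 after SNI. Libraries BALB/c sham 50 and BALB/c SNI 49, both male, stood apart by 5 skeletal muscle markers, which summed to 1332 and 529 CPM against 7.78 to 96.3 CPM in the other 18 libraries. Leaving out both was not planned beforehand. Results that moved without both are given that way too. In whole ganglia, fewer cells of a type and less RNA per cell cannot be told apart.

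Malat1 drew more counts than any other feature of the mouse table (rank 1 of 54315). It took 1.99% ± 0.128 of all counts (SD, n = 20), at 19949 ± 1222 CPM. Genes were compared with each other only per length, in CPM per kb of annotated exon. By that measure Malat1, at 2857 ± 175 CPM per kb, was 4th of 49326 genes with a length, and the other 8 LncRNAs followed far below, as the plot of levels per length shows. Snhg11 (77.8 ± 11.1 CPM per kb), Miat (72.2 ± 6.33) and Meg3 (71.6 ± 5.85) came next, and their ranges across libraries overlapped. Rian stood at 48.8 ± 3.41 CPM per kb. Peg13 (36.7 ± 2.37) and H19 (36.0 ± 22.7) did not differ beyond the spread of H19, whose range also took in Neat1 (21.2 ± 5.45). Mirg was lowest, at 11.7 ± 0.599 CPM per kb, rank 4001 of 49326. The order depends on the length used. Over the longest annotated transcript instead of all exons, Snhg11 stood at 113 CPM per kb, Rian at 110.0, Meg3 at 89.1 and Mirg at 22.4.

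**Figure D1:**
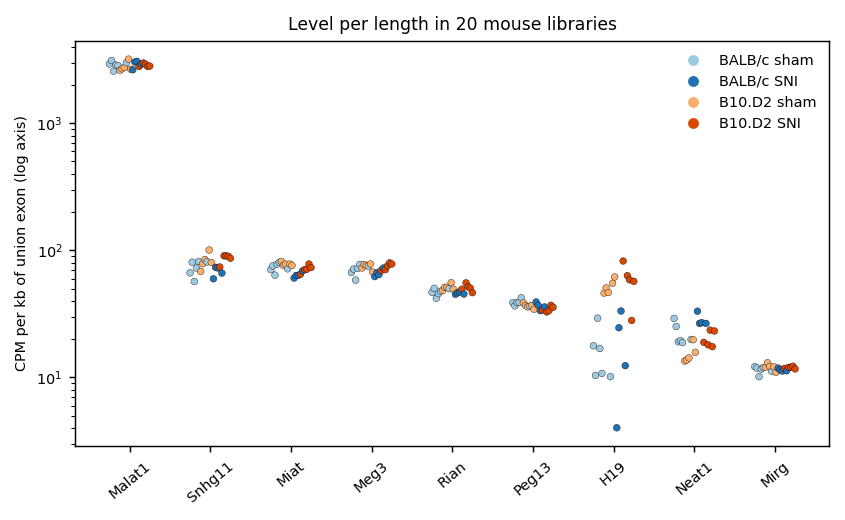
Level of each LncRNA per length in the 20 mouse libraries, in CPM per kb of annotated exon on a log axis, with a point per library coloured by strain and surgery. Malat1 lies far above the rest, H19 spreads most within its column, and the 3 next after Malat1 (Snhg11, Miat, Meg3) overlap.

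The 9 differed in how much they varied between libraries. Across the 20 libraries the coefficient of variation was lowest for Mirg (5.10%), Malat1 (6.13%), Peg13 (6.46%), Rian (6.98%), Meg3 (8.17%) and Miat (8.76%). It was 14.3% for Snhg11, 25.8% for Neat1 and 63.1% for H19. H19 ranged from 9.90 CPM in BALB/c SNI 49 to 203 CPM in B10.D2 SNI 69, a 20.5-fold range, against 1.24-fold for Malat1. The SD that remained after strain, surgery and sex were fitted, on log2(CPM + 1), was 0.617 for H19, which exceeded that of 99.6% of the 11121 features that averaged 10 CPM or more. That of Neat1 (0.225) exceeded 95.3% of them and that of Snhg11 (0.179) exceeded 90.9%. Malat1 (0.092) and Miat (0.092) were near the median of 0.094, and Mirg (0.073) exceeded 25.3%.

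**Figure D2:**
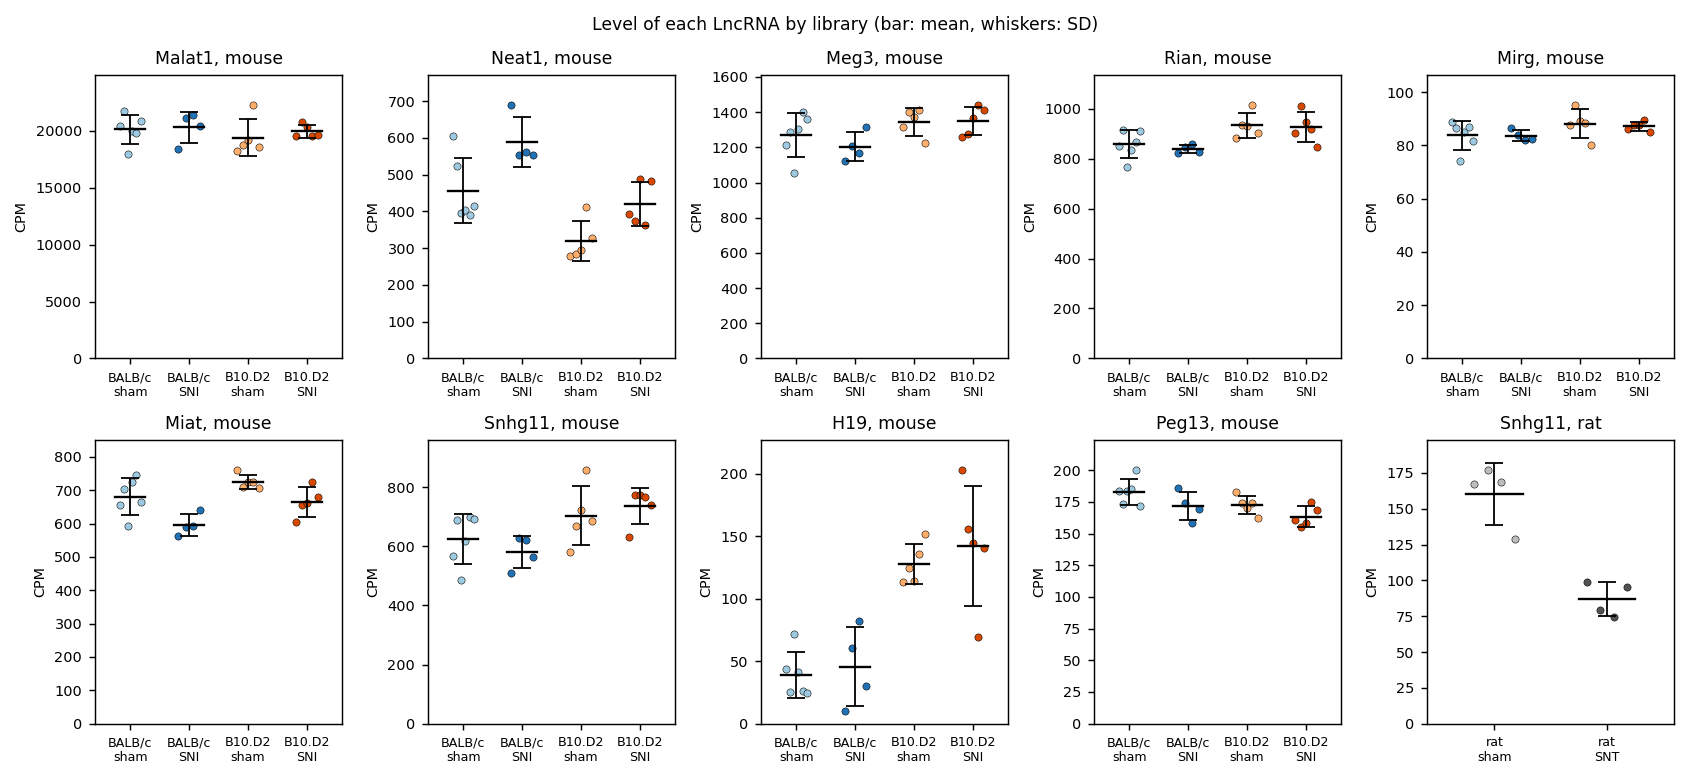
CPM of each LncRNA by library in the 4 mouse groups, and of Snhg11 in the 2 rat groups, with the mean as a bar and the SD as whiskers, each axis starting at 0. H19 is higher in both B10.D2 groups, Neat1 lower in B10.D2 within each surgery, and rat Snhg11 lower in all 4 SNT libraries.

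The strain comparison asked which of these LncRNAs differ between B10.D2 and BALB/c, strains the study chose for their different hypersensitivity after nerve injury. In sham animals 2 of the 9 were called (edgeR adjusted p under 0.05), H19 higher and Neat1 lower in B10.D2, where 21.6% of all 24685 features were called, 11.5% higher and 10% lower. Among the 2715 features with at least the mean CPM of Mirg, the lowest of the 9, the share was 19.3%. The median absolute log2 difference was 0.087 for the 9, 0.145 for all features tested and 0.067 for those 2715. In SNI animals 3 of the 9 were called, H19 and Snhg11 higher and Neat1 lower, where 20.9% of all features were called, 10.9% higher and 9.99% lower. There the median absolute log2 difference was 0.160 for the 9, 0.158 for all and 0.075 for the 2715 features, of which 19.2% were called. Shares of 2 and 3 of 9 lie near these backgrounds.

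H19 showed the largest strain difference of the 9 in both surgeries. In BALB/c sham it stood at 24.96 CPM in the lowest library, 34.1 at the median and 72.0 in the highest. In B10.D2 sham it stood at 113 CPM in library 58, 124 in 60, 115 in 67, 136 in 77 and 152 in 88. Every B10.D2 sham library was above every BALB/c sham library. The fitted difference was 3.61-fold (95% interval 2.29 to 5.67), a log2 difference of 1.85 ± 0.31 (SE, adjusted p = 0.000134).

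Among injured animals the same gene stood at 9.90 CPM in BALB/c SNI 49, 60.6 in 64, 82.0 in 65 and 30.5 in 70. In B10.D2 SNI it stood at 203 CPM in library 69, 156 in 76, 144 in 78, 69.1 in 89 and 140 in 90. The groups overlapped by 1 library of each, since B10.D2 SNI 89 was below BALB/c SNI 65. The fitted difference was 3.19-fold (95% interval 1.92 to 5.32), a log2 difference of 1.68 ± 0.35 (adjusted p = 0.00141). Without BALB/c sham 50 and BALB/c SNI 49 the log2 difference was 1.94 in sham (adjusted p = 1.01e-05) and 1.37 in SNI (adjusted p = 0.00201).

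Markers of other cell types were read beside H19. In both SNI groups the library lowest and the library highest in H19 were also lowest and highest in the summed level of 5 fibroblast and sheath markers: 1128 CPM in BALB/c SNI 49 and 2004 in 65, 1115 CPM in B10.D2 SNI 89 and 1895 in 69. The same was true of BALB/c sham (libraries 71 and 55). In B10.D2 sham it was not: H19 was lowest in 58 and highest in 88, and the marker sum in 67 and 77. Between strains these sums overlapped, at 987 to 1485 CPM in BALB/c sham and 1217 to 1253 in B10.D2 sham. Of all features, 21.6% were called between strains in sham and 20.9% in SNI. Of the 5 fibroblast and sheath markers, Dcn and Lum were higher and Col1a1 lower in B10.D2 in both surgeries. Macrophage markers were higher too, 3 of 7 in both surgeries (Aif1, Adgre1 and C1qb), with summed levels of 45.7 to 111 CPM in BALB/c sham and 95.1 to 109 in B10.D2 sham. Their part in the H19 difference was not tested.

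Neat1 was lower in B10.D2. In BALB/c sham it stood at 391 CPM in the lowest library, 409 at the median and 606 in the highest, and in B10.D2 sham at 280.0 CPM in library 58, 285 in 60, 296 in 67, 412 in 77 and 327 in 88. The sham groups overlapped through B10.D2 sham 77. The B10.D2 level was 0.702 of the BALB/c level (95% interval 0.588 to 0.839), a log2 difference of -0.51 ± 0.12 (adjusted p = 0.00404). In BALB/c SNI Neat1 stood at 689.9 CPM in library 49, 553 in 64, 561 in 65 and 553 in 70, and in B10.D2 SNI at 392 CPM in library 69, 375 in 76, 489 in 78, 363 in 89 and 482 in 90. The SNI groups did not overlap, and the log2 difference was -0.48 ± 0.13 (adjusted p = 0.0141).

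The 2 libraries with most muscle marker RNA were also the 2 with most Neat1, at 606 and 689.9 CPM, and the part of muscle RNA in Neat1 was not tested. Without both, the strain difference was -0.42 in sham (adjusted p = 0.00778) and -0.41 in SNI (adjusted p = 0.0267). In SNI the call was lost without BALB/c SNI 49 (adjusted p = 0.0587) or without B10.D2 SNI 89 (adjusted p = 0.0523).

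Snhg11 was higher in B10.D2 among injured animals. It stood at 509 CPM in BALB/c SNI 49, 627 in 64, 619 in 65 and 565 in 70, and at 630.4 CPM in B10.D2 SNI 69, 772 in 76, 772 in 78, 765 in 89 and 739 in 90. The groups did not overlap, though B10.D2 SNI 69 lay just above the highest BALB/c SNI library. The difference was 1.27-fold (95% interval 1.08 to 1.48), a log2 difference of 0.34 ± 0.11 (adjusted p = 0.0264). In sham the groups overlapped, at 485 to 697 CPM in BALB/c and 582 to 857 in B10.D2, with a log2 difference of 0.17 ± 0.10 (adjusted p = 0.230). The call in SNI was lost without both libraries rich in muscle RNA (0.29, adjusted p = 0.0986) and on leaving out BALB/c SNI 49 or 70 or B10.D2 SNI 76, 78, 89 or 90, with an adjusted p of 0.0516 to 0.0978.

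The other 6 did not pass the test in either strain comparison. Rian was 8.87% higher in B10.D2 sham (95% interval 1.22% to 17.1%, adjusted p = 0.0932) and had a log2 difference of 0.14 ± 0.06 in SNI (adjusted p = 0.0908). Miat was 11.8% higher in SNI (2.40% to 22.0%, adjusted p = 0.0663), and Meg3 12.4% higher (1.44% to 24.5%, adjusted p = 0.102). With the strain effect averaged over sham and SNI, which uses all 20 libraries at once, 5 of the 9 were called, Rian (log2 difference 0.13, adjusted p = 0.0103), Snhg11 (0.26, adjusted p = 0.00807) and Miat (0.12, adjusted p = 0.0225) in addition to H19 and Neat1, where 33.5% of all features were called. Malat1 differed by -3.59% in sham (95% interval -11.1% to 4.54%) and Peg13 by -5.64% (-11.9% to 1.09%).

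**Figure D3:**
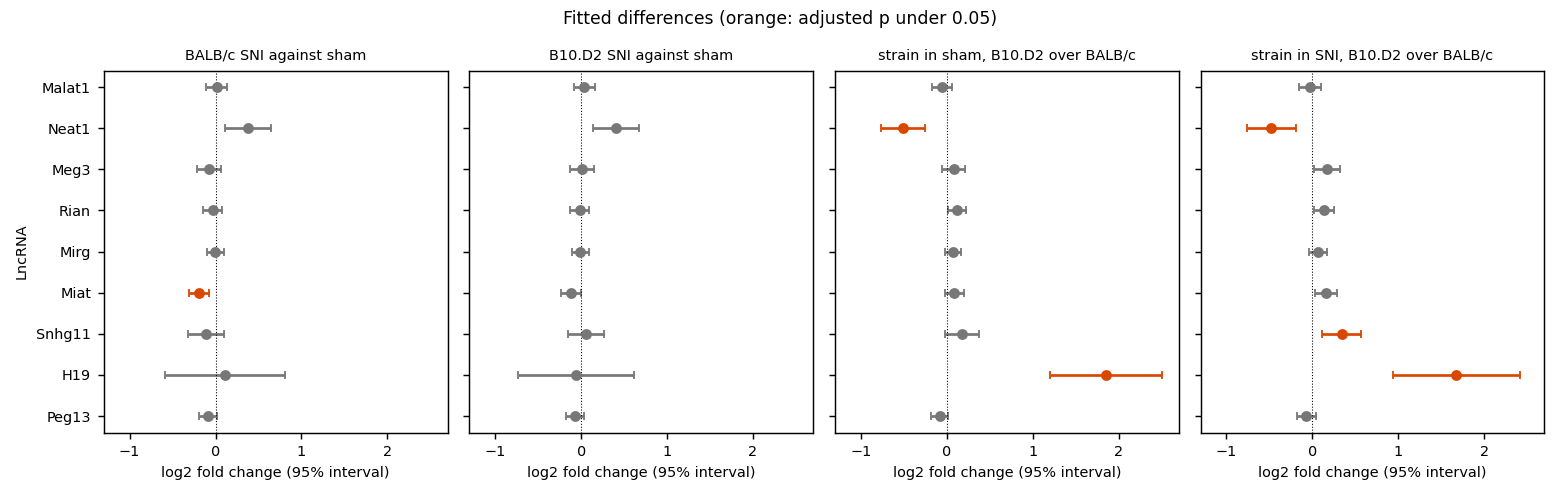
Fitted log2 fold change of each LncRNA with its 95% interval in the 2 injury and 2 strain comparisons, with an adjusted p under 0.05 in orange and a dotted line at 0. H19 at 1.85 and 1.68 lies far from the rest in the strain panels, and in the injury panels only Miat in BALB/c is orange.

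The injury comparison asked which of the 9 change after SNI within each strain. It shares its sham and SNI libraries with the strain comparisons. In BALB/c 1 of the 9 was called, Miat, which fell, where 9.69% of all features were called, 4.82% higher and 4.87% lower. In B10.D2 none was called by edgeR or by DESeq2 and 1 had an unadjusted p under 0.05 (Neat1), where 4.58% of all features were called, 2.1% higher and 2.48% lower. Among the 2715 features with at least the CPM of Mirg, 18.9% and 8.99% were called. The median absolute log2 change was 0.088 for the 9 in BALB/c and 0.131 for all features, and 0.057 against 0.109 in B10.D2. For those 2715 features it was 0.088 and 0.067.

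Miat stood at 593 CPM in the lowest BALB/c sham library, 684 at the median and 747 in the highest, and at 563 CPM in BALB/c SNI 49, 590 in 64, 592 in 65 and 640.5 in 70. The other SNI libraries (49, 64 and 65) were below every sham library, while library 70 lay within the sham range. Miat fell by 12.5% (95% interval -19.5% to -4.79%), a log2 change of -0.19 ± 0.06 (adjusted p = 0.0403). In B10.D2 Miat ranged from 707 to 760 CPM in sham and from 603 to 726 in SNI, with a log2 change of -0.12 ± 0.06 (adjusted p = 0.299). The call in BALB/c was lost without both libraries rich in muscle RNA (-0.19, adjusted p = 0.0869) and without BALB/c sham 51, 56 or 57 or BALB/c SNI 49, 64 or 65, with an adjusted p of 0.0687 to 0.151. Neuronal markers moved beside it: of 9, Snap25, Nefh and Nefm fell in both strains, and the summed level was 8881 to 10289 CPM in BALB/c sham and 7912 to 9097 in BALB/c SNI. Their part in the fall of Miat was not tested.

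Neat1 was the only other member with an unadjusted p under 0.05 after injury. It was 29.6% higher in BALB/c SNI than in sham (95% interval 7.59% to 56.1%, adjusted p = 0.0737) and 32.6% higher in B10.D2 (95% interval 10.2% to 59.6%, adjusted p = 0.0792). In BALB/c 3 SNI libraries (553 to 561 CPM) lay within the sham range and library 49 above it, and in B10.D2 the groups overlapped through sham 77. Of 7 macrophage markers 6 had an unadjusted p under 0.05 in each strain, with a median log2 change of 0.52 in BALB/c, where 2 were called, and 0.45 in B10.D2, where none was called by edgeR and 1 by DESeq2. Of 5 fibroblast and sheath markers Lum was called in both strains, and the median log2 change was 0.27 and 0.26. The part of these cells in the Neat1 values was not tested. Whether Neat1 passed the test depended on single libraries. Without BALB/c sham 50 the BALB/c log2 change was 0.46 (adjusted p = 0.0161), and without B10.D2 sham 77 the B10.D2 change was 0.55 (adjusted p = 0.0105). Leaving out another library lowered the Neat1 change to as little as 0.30 in BALB/c, with an adjusted p of up to 0.239. In B10.D2 the lowest such change was 0.34, with an adjusted p of up to 0.233. Without both libraries rich in muscle RNA the change was 0.37 in BALB/c (adjusted p = 0.0705) and 0.39 in B10.D2 (adjusted p = 0.0464). Both are BALB/c libraries, so the B10.D2 result moved with no B10.D2 library left out.

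The remaining 7 did not pass the test in either strain. Malat1 changed by 0.79% in BALB/c (95% interval -7.53% to 9.86%) and by 2.40% in B10.D2 (-5.96% to 11.5%). Meg3 was at 0.947 of its sham level in BALB/c (0.858 to 1.045) and at 1.007 of it in B10.D2 (0.914 to 1.110). Rian, Mirg and Peg13 had intervals of -12.6% to 7.12% in BALB/c and -11.7% to 6.69% in B10.D2. The interval of H19 was wide, -33.3% to 75.4% in BALB/c and -39.9% to 52.9% in B10.D2, so a moderate change in H19 was not detectable with these libraries. Without both libraries rich in muscle RNA its log2 change in BALB/c was 0.52 ± 0.28 (adjusted p = 0.297), against 0.11 ± 0.33 with them.

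Whether the injury change differed between strains was tested by the interaction term. None of the 9 was called by edgeR or DESeq2, none had an unadjusted p under 0.05, and 0.0243% of all features were called. The largest interaction estimates were those of Snhg11 (0.17 ± 0.14) and H19 (-0.17 ± 0.46), on the log2 scale. A difference between the sexes, the sex term of the same fit, was called for none of the 9 by edgeR or DESeq2, where 0.243% of all features were called. H19 alone had an unadjusted p under 0.05 there. It was 1.61-fold higher in females (95% interval 1.14 to 2.26, adjusted p = 0.241), and the sexes separated in the SNI groups only. BALB/c SNI females stood at 60.6 and 82.0 CPM and males at 9.90 (library 49, rich in muscle RNA) and 30.5. B10.D2 SNI females stood at 144 to 203 CPM and males at 69.1 and 140. In sham the sexes overlapped, at 26.5 to 72.0 CPM in females and 24.96 to 43.7 in males of BALB/c, and at 115 and 136 CPM in females and 113 to 152 in males of B10.D2.

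The H19 result was set beside the genes of its domain. Igf2, the growth factor gene that shares enhancers with H19, stood at 26.3 to 68.4 CPM in BALB/c sham and 69.1 to 123 in B10.D2 sham, without overlap. Its log2 difference was 1.23 ± 0.24 in sham (adjusted p = 5.95e-04) and 1.35 ± 0.27 in SNI (adjusted p = 9.43e-04). In SNI it stood at 14.8 CPM in BALB/c 49, 45.6 in 64, 55.7 in 65 and 35.3 in 70, and at 114 CPM in B10.D2 69, 119 in 76, 90.05 in 78, 60.1 in 89 and 103 in 90. In both SNI groups the library lowest in H19 was also lowest in Igf2. Without the 2 libraries rich in muscle RNA the Igf2 difference was 1.34 and 1.13.

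Between strains, 21.6% of all features were called in sham and 20.9% in SNI. Of the 8 other genes of the H19-Igf2 and Kcnq1 domain that were tested, 3 were higher in B10.D2 in both surgeries, and none was called for injury in B10.D2, where no unadjusted p was under 0.05 and DESeq2 called none. Beside Igf2 these were Phlda2, an imprinted growth regulator (log2 difference 1.05 ± 0.32 in sham and 1.76 ± 0.38 in SNI, at under 1 CPM), and Slc22a18, an imprinted transporter gene (0.20 ± 0.06 and 0.43 ± 0.07). Without the libraries rich in muscle RNA the Phlda2 differences were 1.07 and 1.54. Slc22a18 lost its call in sham without the libraries rich in muscle RNA (adjusted p = 0.0624). It also fell in BALB/c after SNI, by 0.30 ± 0.07 on the log2 scale (adjusted p = 0.00668), from 8.84 ± 0.336 to 7.16 ± 0.654 CPM (SD, n = 6 and 4), and by 0.31 without those libraries (adjusted p = 0.025). Kcnq1ot1, the LncRNA that silences the neighbouring Kcnq1 cluster, stood at 339 ± 15.3 CPM in BALB/c sham and 343 ± 27.0 in B10.D2 sham, a log2 difference of 0.02 ± 0.05. Cdkn1c (0.15 ± 0.14), Kcnq1 (0.01 ± 0.14) and Mrpl23 (-0.02 ± 0.07) did not pass the test in sham. Tnnt3, a gene of the same region that is also a skeletal muscle marker, was at -2.38 ± 0.99 (adjusted p = 0.0959) in sham and at -0.30 without the libraries rich in muscle RNA. Ins2 did not pass the filter on low counts.

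**Figure D4:**
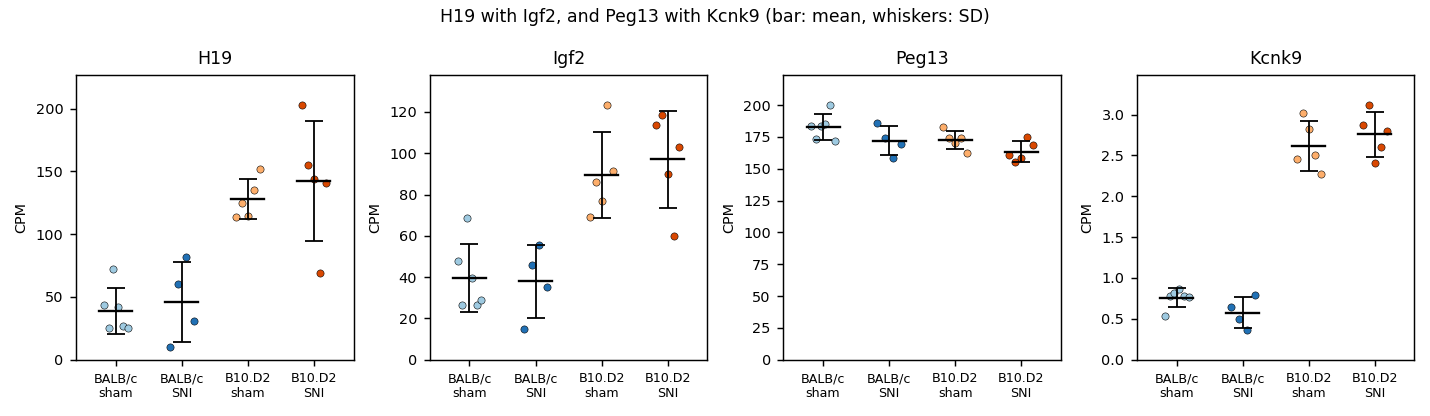
CPM by library of H19 with its neighbour Igf2 and of Peg13 with its neighbour Kcnk9 in the 4 mouse groups, with the mean as a bar and the SD as whiskers. H19, Igf2 and Kcnk9 are higher in B10.D2, and Peg13 lies between 155 and 199.95 CPM in all 20 libraries.

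Around Peg13 the strain difference lay in a protein-coding neighbour. Kcnk9, an acid-sensitive potassium channel gene, stood at 0.537 to 0.865 CPM in BALB/c sham and 2.27 to 3.02 in B10.D2 sham, and at 0.363 to 0.795 CPM in BALB/c SNI and 2.40 to 3.12 in B10.D2 SNI. The strains did not overlap in either surgery. The log2 difference was 1.77 ± 0.15 in sham (adjusted p = 1.32e-08) and 2.27 ± 0.18 in SNI (adjusted p = 5.88e-09), and 1.68 and 2.32 without the libraries rich in muscle RNA. Peg13 itself stood at 172 to 199.95 CPM in BALB/c sham and 163 to 183 in B10.D2 sham, with a log2 difference of -0.08 ± 0.05 (adjusted p = 0.245). Trappc9, the gene in whose intron Peg13 lies (-0.05 ± 0.07), Chrac1 (-0.17 ± 0.08) and the Argonaute gene Ago2 (-0.14 ± 0.12) did not pass the test in sham. After SNI none of these 4 neighbours was called in either strain by edgeR or DESeq2, and the unadjusted p was under 0.05 for 1 in BALB/c and 0 in B10.D2.

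Meg3, Rian and Mirg lie in 1 direction along chromosome 12, and the features between the start of Meg3 and the end of Mirg were followed on that strand. Of these, 70 were tested, 59 of them small RNA genes. After SNI 0 of the 70 were called in either strain by edgeR or DESeq2, with an unadjusted p under 0.05 for 2 in BALB/c and 3 in B10.D2. Between strains 3 of the 70 were called in sham and 1 in SNI (DESeq2, 1 and 1), where 21.6% and 20.9% of all features were called. The stretch held fewer calls than these backgrounds, which cover features of all levels. Its 59 small RNA genes averaged at most 5.33 CPM, and the part of low counts in the few calls was not tested. The 3 features called averaged 0.605 to 1.15 CPM. AF357428, a snoRNA gene between Rian and Mirg, was lower in B10.D2, with a log2 difference of -1.08 ± 0.19 in sham (adjusted p = 1.92e-04) and -1.11 ± 0.21 in SNI (adjusted p = 4.52e-04). Its level was 1.304 to 2.11 CPM in BALB/c sham and 0.580 to 1.116 in B10.D2 sham, without overlap. AF357341, another snoRNA gene (0.51, adjusted p = 0.0426), and Mir496a (0.46, adjusted p = 0.0262), the hairpin gene of one of the miRNAs with the shared seed, were higher in B10.D2 sham.

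Longer transcripts of the stretch were also counted: the annotated Gm37899 (50.7 CPM) and B830012L14Rik (15.1) between Rian and Mirg, Gm26945 (30.7) inside the Rian gene, and the LncRNAs that the study assembled there, LncRNA2415 (25.4 CPM), LncRNA2416 (20.999) and LncRNA6401 to LncRNA6403 (3.67 to 5.60). None was called in the injury or strain comparisons. The 59 miRNA genes of the stretch had mean levels of at most 2.29 CPM and the 23 snoRNA genes of at most 5.33 CPM, and 46 and 13 of them were tested. Of the other genes of the domain, Wdr25 fell in BALB/c SNI (log2 change -0.25 ± 0.07, adjusted p = 0.0308), from 12.7 ± 1.18 to 10.7 ± 0.609 CPM (SD, n = 6 and 4). Begain, which encodes a synaptic protein, changed by -0.19 ± 0.14 and Dlk1, a growth inhibitor at under 1.1 CPM, by -0.33 ± 0.50. Rtl1 and Dio3, which lie between and beyond the hosts, did not pass the filter on low counts.

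**Figure D5:**
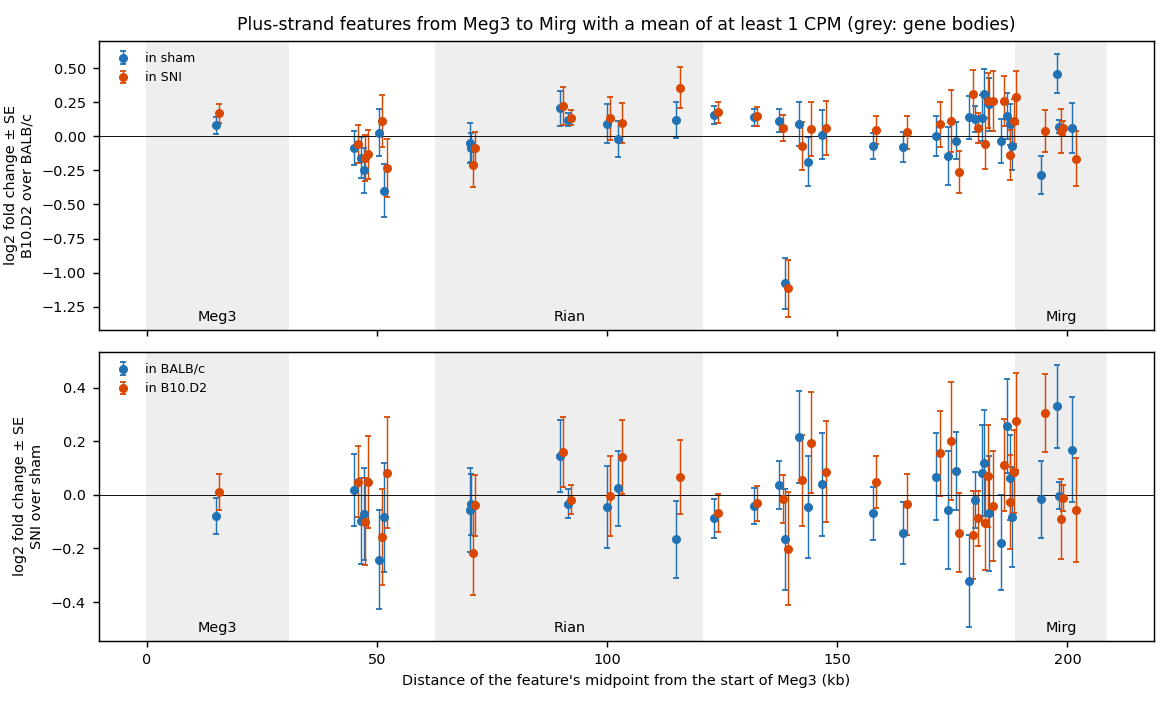
Log2 fold change with SE of the 38 plus-strand features from Meg3 to Mirg that averaged 1 CPM or more, against the distance from the start of Meg3 in kb, between strains (top) and after SNI (bottom), with the bodies of the 3 hosts in grey. AF357428, at -1.08 and -1.11, is the only feature far below 0 in the top panel.

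Malat1 and Neat1 were set beside genes around them and proteins of their nuclear bodies. Of 6 neighbouring genes 2 rose in BALB/c SNI, Slc25a45, a mitochondrial carrier (0.55 ± 0.09, adjusted p = 3.96e-04), and Frmd8 (0.29 ± 0.06, adjusted p = 0.00211). There 9.69% of all features were called. LncRNA7642, an assembled LncRNA of the same strand between the 2 genes, had a mean of 0.854 CPM. Of 14 paraspeckle proteins Nono alone was called after SNI, in BALB/c (0.12 ± 0.03, adjusted p = 0.0316). Of 16 speckle and SR proteins 2 were higher (Son, 0.16 ± 0.03, and Srsf2, 0.12 ± 0.04) and 1 lower (Srrm1, -0.18 ± 0.05) in B10.D2 sham, where 21.6% of all features were called. In SNI 1 was higher (Son, 0.19 ± 0.03) and 2 lower (Srrm1, -0.22 ± 0.06, and Srsf10, -0.17 ± 0.06), where 20.9% of all features were called. None of the 16 was called for injury by edgeR or DESeq2, with an unadjusted p under 0.05 for 2 in BALB/c and 1 in B10.D2. Of 4 splicing factors known to bind Miat none was called in mouse by edgeR, while DESeq2 called 1 in BALB/c SNI and none elsewhere in mouse. An unadjusted p under 0.05 was found for 1 in BALB/c SNI, 2 in B10.D2 SNI and 1 in each strain comparison.

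Among the other small nucleolar RNA host genes 13 of 19 listed were tested. In BALB/c SNI 3 rose, led by Snhg5 (0.42 ± 0.09) and Gas5 (0.19 ± 0.06), where 9.69% of all features were called. In B10.D2 SNI none was called by edgeR or DESeq2 and no unadjusted p was under 0.05. In B10.D2 sham 3 were higher than in BALB/c sham, led by Snhg6 (0.70 ± 0.09, adjusted p = 6.09e-06) and Gas5 (0.22 ± 0.05). There 21.6% of all features were called. In SNI 2 were higher (Snhg6, 0.57 ± 0.10, and Snhg3, 0.42 ± 0.14) and 2 lower (Snhg5, -0.38 ± 0.10, and Snhg8, -0.37 ± 0.10). There 20.9% of all features were called. Of 23 other imprinted genes tested 4 changed in each strain after SNI, 3 up and 1 down. The share of all features called was 9.69% in BALB/c and 4.58% in B10.D2. Grb10, an adaptor of insulin receptor signalling, rose by 0.49 ± 0.05 in BALB/c (adjusted p = 2.83e-06) and by 0.35 ± 0.05 in B10.D2 (adjusted p = 4.10e-04), Gab1 rose by 0.19 ± 0.04 and 0.20 ± 0.04, and Nap1l5 fell by 0.33 and 0.26 on the log2 scale. Between strains 2 were higher and 2 lower in B10.D2 sham, Plagl1 (0.34 ± 0.10) and Ube3a (0.16 ± 0.05) against Asb4 (-1.49 ± 0.31) and Inpp5f (-0.17 ± 0.04), and in SNI 1 was higher and 2 lower. These strain counts stand beside 21.6% of all features called in sham and 20.9% in SNI.

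In rat only Snhg11 (ENSRNOG00000036802) could be followed. It stood at 167 CPM in sham 1, 177 in sham 2, 169 in sham 3 and 129 in sham 4, and at 98.8 CPM in SNT 1, 79.4 in SNT 2, 74.3 in SNT 3 and 95.3 in SNT 4. Every SNT library was below every sham library. Snhg11 fell by 45.8% (95% interval -56.0% to -33.2%), a log2 change of -0.88 ± 0.14 (adjusted p = 0.0106). Of the 13690 features tested in rat 27.4% were called, with 12.3% of those tested higher and 15.1% lower. Sham 4, the lowest sham, also had a summed level of axon injury markers of 691 CPM, against 270.0 to 305 in the other shams and 945 to 1391 after SNT. Of these 8 markers 2 were listed at 0 in all rat libraries. Without sham 4 the change in Snhg11 was -0.97 (adjusted p = 0.00134).

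Markers of sensory neurons moved beside Snhg11 in rat. Of 8 markers 5 were listed at 0 in all libraries, and of the 3 tested Isl1 and Avil fell, by 1.09 and 1.42 on the log2 scale. The summed level was 4611 to 6773 CPM in sham and 3698 to 6269 after SNT. Markers of other cells were read beside it as well. The summed level of 5 fibroblast and sheath markers was 2981 to 5338 CPM in sham and 6629 to 10793 after SNT, without overlap. The sum of the Schwann cell markers was 1243 to 1778 CPM in sham and 1481 to 2935 after SNT, and that of the macrophage markers 102 to 433 and 349 to 526. That of the satellite glia markers was 8025 to 12112 CPM in sham and 6140 to 8412 after SNT, and 1 of the 2 tested fell. These lists were incomplete too. Listed at 0 in all rat libraries were 2 of the 5 fibroblast and sheath markers, 3 of 6 Schwann cell markers, 3 of 7 macrophage markers and 3 of 5 satellite glia markers. The part of any of these markers in the fall of Snhg11 was not tested. In mouse Snhg11 after SNI was at 0.926 of the sham level in BALB/c (95% interval 0.799 to 1.074) and at 1.040 of the sham level in B10.D2 (0.900 to 1.202). Species, RNA selection, injury, ganglion and day all differ between these experiments, so no test between them was made.

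In rat the same lists differed in their calls, where 27.4% of all features were called. None was called of the 2 other Dlk1-Dio3 genes tested (unadjusted p under 0.05 for 1). Of the 6 other H19-Igf2 and Kcnq1 genes tested none was called either (unadjusted p under 0.05 for 2). DESeq2 called none in these 2 lists, and no other small nucleolar RNA host gene was tested. Kcnk9 fell by 3.11 ± 0.59 on the log2 scale (adjusted p = 0.0114), from 3.17 ± 1.01 to 0.371 ± 0.373 CPM (SD, n = 4 and 4). Igf2 stood at 60.5 ± 27.6 CPM in sham and 91.6 ± 12.2 after SNT (log2 change 0.60 ± 0.25, adjusted p = 0.103). Of 8 paraspeckle proteins tested 4 rose, among them Sfpq (0.44 ± 0.13), and both splicing factors known to bind Miat that were tested rose, Celf3 (1.25 ± 0.16) and Sf1 (0.55 ± 0.12). Of 8 speckle and SR proteins 2 rose, and of 6 neighbours of Malat1 and Neat1 2 rose, Frmd8 (0.72 ± 0.13) and Ltbp3 (0.38 ± 0.12). Of 19 other imprinted genes 2 rose and 5 fell, led by Mest (-0.96 ± 0.22) and Nap1l5 (-1.61 ± 0.41).

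Last, the pattern of each LncRNA across libraries was described by the Pearson r of residual log2(CPM + 1), after strain, surgery and sex were fitted, over the 20 libraries, which share depth and composition. H19 was most like 1500015O10Rik (r = 0.942), Col12a1, a collagen gene (r = 0.921), and Igf2 (r = 0.917), among 18595 features that averaged 1 CPM or more. Snhg11 was most like Firre, a nuclear LncRNA (r = 0.939), Elavl2 (r = 0.937) and Dnm1l (r = 0.937). Neat1 was most like Pdk4 (r = 0.899), Alpk1 (r = 0.874) and the assembled LncRNA6603 (r = 0.858). Malat1 was most like Arid4b (r = 0.902), Ppig (r = 0.899) and Mrps10 (r = 0.898), and Rian most like Klhl28 (r = 0.908), Idh3a (r = 0.905) and Zdhhc2 (r = 0.903). For Meg3 these were Camta1, Them6 and Pcgf1 (r = 0.874 to 0.885), for Mirg 9630010A21Rik, Clrn1 and Abcc5 (r = 0.821 to 0.834), for Miat Pnlip, Ppme1 and Tmem54 (r = 0.813 to 0.825), and for Peg13 Spop, Senp5 and the assembled LncRNA2252 (r = 0.811 to 0.834). With sex left out of the fit, 1 of the 3 was shared for Malat1, Miat, H19 and Peg13.

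Among the 9 themselves r was highest for Malat1 with Snhg11 (0.822) and Malat1 with Rian (0.799). The 3 hosts of the Dlk1-Dio3 domain were less alike, with r of 0.433 for Meg3 and Rian, 0.542 for Meg3 and Mirg and 0.469 for Rian and Mirg. Malat1 and its neighbour Neat1 had an r of 0.429.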

How the data were processed

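Per the study's methods, the authors aligned strand-specific paired-end reads with STAR to mm10 or rn6 and counted them per gene with HTSeq, both strains against 1 reference; tool versions are not given in the sources used here. The deposited tables hold these raw counts per feature. The authors' own fold changes and p-values, made with DESeq2, were not used. Here all features passing filterByExpr were fitted with edgeR 4.0.16 in R 4.3.3 (TMM, quasi-likelihood F test, two-sided; mouse: sex and strain by surgery, rat: surgery), Benjamini-Hochberg adjusted over all features, and called at an adjusted p under 0.05. SEs were derived from the log2 change and its F statistic. The edgeR steps of the BALB/c injury comparison, and of no other comparison, were also run on simulated counts with known changes. Residuals are of log2(CPM + 1). Named were all 9 LncRNAs, each gene of their domains, at most 2 called genes per direction of other lists, and the 3 most similar features; other names were chosen after their values were seen. Members and lists were chosen with earlier results of these data known. Alternatives included DESeq2 1.42.0, other normalizations and filters, and leaving out libraries. P-values for rat rest on pooled animals. A number that rat sham and SNT titles share, of unstated meaning, was not treated as a pairing in this fit.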

Additional observations from a re-analysis of the deposited data

Results flagged for a closer look

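In 3 of 38 groups of 4 to 6 libraries a library lay far from the others by Dixon's test, which marks about 1 in 20 groups by chance. Malat1 stood at 22277.9 CPM in B10.D2 sham 77, above the other 4 B10.D2 sham libraries (18232 to 19178 CPM). That library also had the largest share of mitochondrial counts of the 20, 0.999%. Neat1 stood at 689.9 CPM in BALB/c SNI 49, above 553 to 561 CPM in the other 3, and the same library held 529 CPM of muscle markers. Snhg11 stood at 630.4 CPM in B10.D2 SNI 69, below 739 to 772 CPM in the other 4, and that library had the most H19 of the 20, 203 CPM.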

How the results depend on the processing

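Among alternative values of a member's log2 change, 877 kept direction and side of the threshold, 18 lost the call, 16 gained it and 50 reversed, and no reversed value was past the threshold. The H19 and Neat1 strain calls in sham and the H19 call in SNI held under every alternative run. The Miat call in BALB/c was also lost with library totals alone (adjusted p = 0.0572) and with only the groups compared (adjusted p = 0.117). The cause of each change below was not tested. In BALB/c after SNI the number called was 0 with library totals alone, 2 with no filter, 0 without both libraries rich in muscle RNA, and 0 to 2 leaving out a library. In B10.D2 it was 1 with no filter, 1 without those libraries (Neat1, 0.39, adjusted p = 0.0464), and 0 to 1. Between strains it was 5 in SNI with only the groups compared and 1 to 4 leaving out a library, and 5 in sham with the effect averaged.

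Among values that reversed, with library totals alone Rian was at 0.0040 and Mirg at 0.034 in BALB/c, and Rian at 0.0079 and Mirg at 0.014 in B10.D2. H19 in B10.D2 was at 0.15 without the sex term and 0.053 with only the groups compared, and the Malat1 interaction at -0.017 without the libraries rich in muscle RNA. Leaving out a library gave -0.027 to 0.054 for Malat1, -0.036 to 0.012 for Mirg and -0.21 to 0.44 for H19 in BALB/c, and -0.024 to 0.035 for Meg3, -0.048 to 0.015 for Rian, -0.045 to 0.014 for Mirg and -0.24 to 0.085 for H19 in B10.D2. For the interaction it gave -0.017 to 0.081 for Malat1, -0.063 to 0.18 for Neat1, -0.016 to 0.051 for Rian, -0.043 to 0.020 for Mirg, -0.45 to 0.17 for H19 and -0.023 to 0.047 for Peg13.

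Each rat sham title shares its first number with an SNT title, and the labels do not say what that number means. With it as a replicate block, rat Snhg11 was at -0.88 (adjusted p = 0.0273) and 17.4% of features were called. Deviations from the group mean correlated at -0.293 to 0.05 between libraries sharing the number, and no library was most like the one sharing its number. With so few libraries per group this cannot exclude a pairing.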
